A study of Equus caballus with 20 samples.

Results

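The sarcoplasmic reticulum calcium pumps and buffers described here are 9 genes, Atp2a1, Atp2a2, Atp2a3, Casq1, Casq2, Hrc, Calr, Sln and Pln. They were found by gene symbol, ignoring case, in the platform's probe annotation, which gave 10 of 24493 probes. Atp2a1 had a probe spelled in the mouse style and a second one in capitals (ATP2A1), and these were kept apart, while the other genes had 1 probe each.

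Muscle relaxes when SERCA pumps, the products of the Atp2a genes, return calcium from the cytosol to the sarcoplasmic reticulum. There calsequestrin, the histidine-rich calcium-binding protein and, in lesser amount, calreticulin hold it until the ryanodine receptor opens for the next contraction. Sarcolipin and phospholamban are small membrane proteins that bind the pump and hold it back.

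The affected group was 5 horses of the French Trotter breed with RER (recurrent exertional rhabdomyolysis), in which muscle fibres break down after exercise. High activity of muscle enzymes in plasma is recorded for them. Biopsies of a hindquarter muscle, gluteus medius, and of a back muscle, longissimus lumborum, were compared with RNA pooled from the same muscle of sound horses, of which the study had 10. No treatment, age or genotype is given in the labels. Each RER sample was hybridised with its pool on 2 two-colour oligonucleotide arrays with the dyes exchanged, 20 arrays in all, and the mean of these 2 log2 ratios is the value of a horse and muscle. The pool is a single control sample per muscle, so nothing below includes the spread among control horses.

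Values are log2 ratios of the 2 channels after centring each array on its median. Signs are those of the deposited table, and RER over pool is their likely direction but not a stated one. Among the gluteus Cy3 arrays, hybridised with the same pool, the lowest correlation was that of horses 2 and 4 (r = -0.34). Within a dye-swap pair the arrays correlated at 0.30 to 0.85 over all probes in 6 samples, but at -0.21 to -0.32 in gluteus horses 2 and 3 and longissimus horses 1 and 2. Horse values of those 4 samples are therefore averages of arrays that ran against each other. With the Cy3 array of these 4 pairs turned, no member passed. The longissimus means were then 0.23 for Atp2a1, 0.17 for Atp2a2, -0.69 for Casq1, 0.25 for Casq2, -0.45 for Hrc and -0.12 for Pln. Atp2a1 and Casq2 lay above 0 in 5 of 5 horses, with limma p of 0.0244 and 0.0290 before adjustment (0.264 and 0.270 after). Hrc lay below 0 in 5 of 5 (limma p 0.0568 before adjustment). Of 10176 features, 1653 then had an unadjusted p under 0.05 in longissimus, against 426 as deposited. If every sign were turned, sizes would stay and higher and lower would change places. A ratio gives no expression level, so genes are not ranked by abundance and the muscle identity of the biopsies could not be checked by level. The number of measured probes split the arrays into 10 dense ones with 22032 to 24050 values (gluteus horses 1, 2 and 3, longissimus horses 1 and 2) and 10 sparse ones with 8966 to 17708 (the other horses of each muscle). The 4 pairs that correlated below 0 were all on dense arrays. All 206 capital-symbol probes lacked values on every dense array, and 202 of them had values on sparse arrays. The longissimus sample of horse 4 stood apart, with 18.0% of its features beyond a ratio of 1 on the log2 scale against 0.236% to 3.96% in the other 9 samples.

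No pump or buffer gene passed the test in either muscle. Features (probes averaged by symbol as spelled, or single unnamed probes) were tested where at least 4 of 5 horses had a value in each muscle, which held for 6 of the 10 member probes: Atp2a1, Atp2a2, Casq1, Casq2, Hrc and Pln. In gluteus 0 of the 6 passed, against 0% of all 10176 features (limma, Benjamini-Hochberg adjusted p under 0.05), and at an unadjusted p under 0.05 it was again 0 of 6 beside 1.84% of all features. In longissimus 0 of the 6 passed, against 0% of all features, and 0 of 6 had an unadjusted p under 0.05 beside 4.19%. Both muscles share 1 estimate of the spread in this fit, so the SE of a muscle mean below holds the spread of both. The unadjusted counts were 187 features in gluteus and 426 in longissimus. With each muscle fitted alone they were 510 and 147, and 0 features were called. In gluteus 4 of the 6 lay below 0 with a median of -0.064, where 53.9% of all features lay below 0 and their median was -0.0096. In longissimus 3 of 6 lay below 0 with a median of 0.050, beside 51% and -0.0032. Atp2a3, Calr, Sln and ATP2A1 had too few horses for this test and are given as values.

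**Figure D1:**
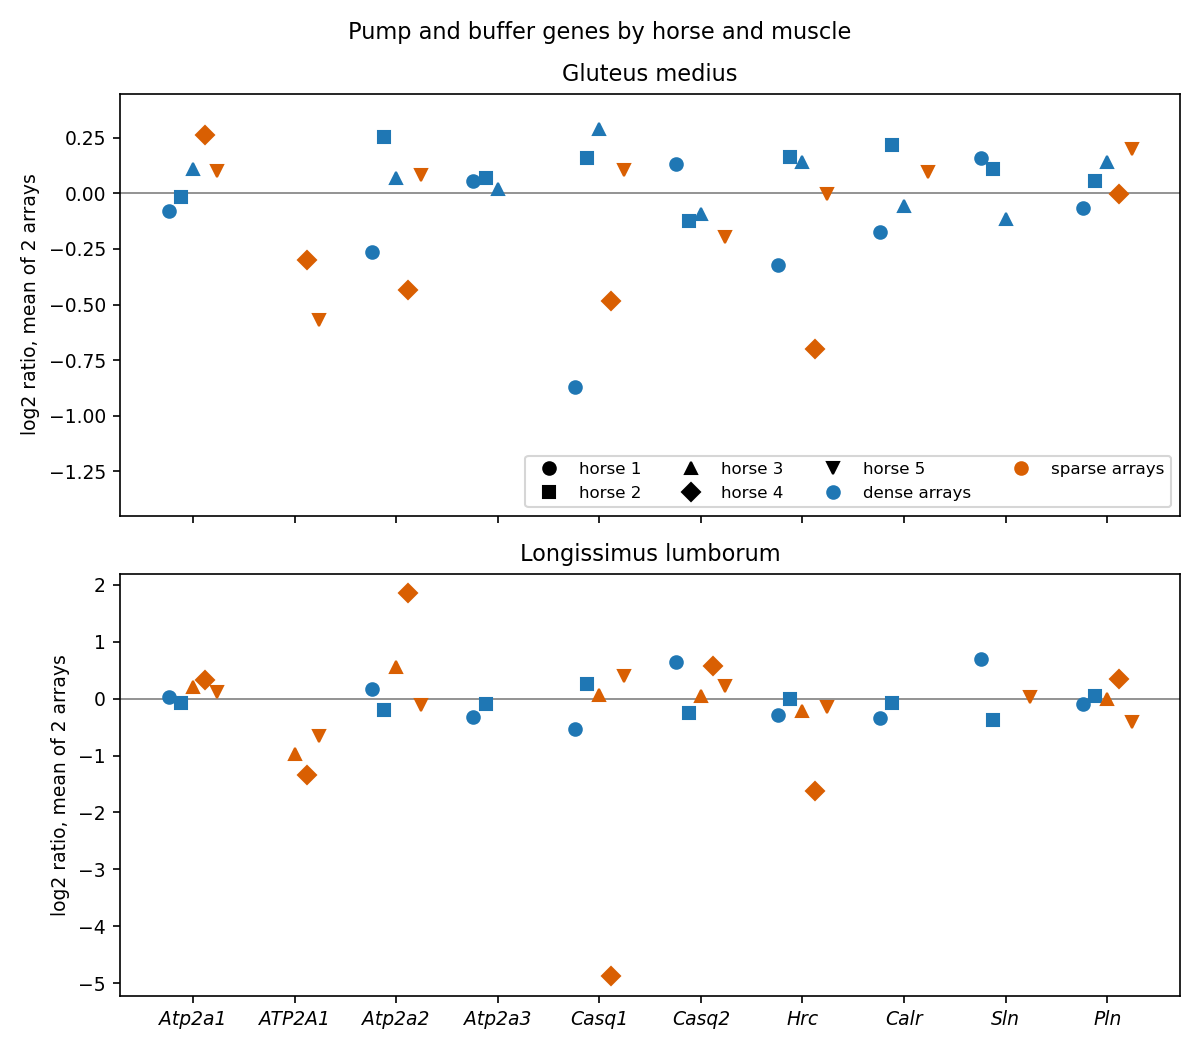
Log2 ratio of each horse (mean of its 2 dye-swapped arrays, vertical axis, scales differ between panels) for the 10 member probes in gluteus and longissimus. Symbols stand for horses and colours for dense and sparse arrays. In longissimus, Casq1 of horse 4 lies at -4.88 and Atp2a2 of the same horse at 1.86, far from the other horses.

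The fast-fibre pump gave different readings from its probes. Atp2a1 encodes SERCA1, the main pump of fast skeletal fibres. In gluteus the mouse-style probe read -0.078, -0.016, 0.11, 0.27 and 0.099 in horses 1 to 5. In longissimus it read 0.031, -0.079, 0.20, 0.34 and 0.12. Values stayed close to 0 in both muscles, and in each muscle horse 4 was highest. The means were 0.076 ± 0.078 (SE, n = 5) in gluteus and 0.12 ± 0.078 (SE, n = 5) in longissimus, with limma adjusted p of 1 and 0.827. The 95% confidence intervals ran from -0.097 to 0.25 and from -0.051 to 0.29.

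The capital ATP2A1 probe was measured on the sparse arrays alone and lay below 0 on all 10 of them. Its horse values were -0.30 and -0.57 in gluteus of horses 4 and 5. In longissimus they were -0.97, -1.33 and -0.65 in horses 3, 4 and 5. Both horses measured in both muscles were lower in longissimus, and the groups of values of the 2 muscles did not overlap. With as many values on sparse arrays, every longissimus value lay below every gluteus value in 5.99% of 6523 features, and the muscles did not overlap in either direction in 12.7%. Fitted on sparse arrays alone, the mean was -0.44 ± 0.20 (SE, n = 2) in gluteus and -0.99 ± 0.16 (SE, n = 3) in longissimus. Limma gave a longissimus p of 0.00145 for ATP2A1 and an adjusted p of 0.527 over 7972 features, so it did not pass, and the gluteus values were 0.0754 and 0.999. In that fit 0.0125% of features passed in each muscle and 5.53% had an unadjusted p under 0.05 in longissimus. The difference between muscles was 0.55 ± 0.25 (SE, limma adjusted p 0.997). Of all features with values on the 10 sparse arrays, 3.26% were below 0 on every one, and among capital symbols the share was 8.59%.

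On the 10 arrays that hold both, ATP2A1 was lower than Atp2a1 on every one, with differences of -0.53 to -1.95. The ATP2A1 mean was -0.77 and the Atp2a1 mean 0.20, where Atp2a1 lay above 0 on 7 of the arrays. Across these arrays the readings of the 2 probes hardly moved together (r = 0.090, n = 10 arrays from 3 horses, a description). Of 44 genes with both spellings measured on all 10 arrays, the median r was 0.32, 17 had means of opposite sign, and the median absolute difference was 0.26. A larger absolute difference than that of ATP2A1 and Atp2a1, 0.97, was found in 2 of the 44. With the spellings averaged, the gene stood at -0.24 ± 0.087 (SE, n = 5) in longissimus, with the opposite sign to the mouse-style probe (adjusted p 0.825 with limma, 0.0191 before adjustment). The average mixes horses that have 1 probe with horses that have 2. Which transcript region or species sequence each probe was designed on was not analysed here, so the spellings cannot be told apart by what they detect.

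**Figure D2:**
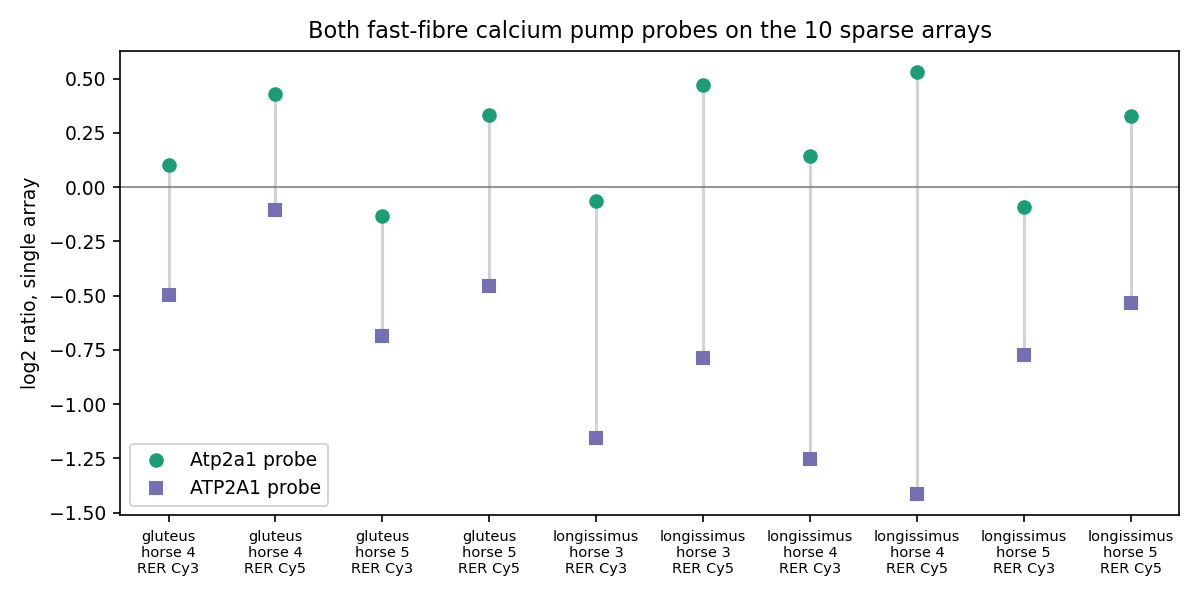
Log2 ratios of the Atp2a1 and ATP2A1 probes on each of the 10 sparse arrays, labelled by muscle, horse and the dye of the RER RNA. Grey lines join the probes of 1 array. The ATP2A1 point lies below the Atp2a1 point on every array, between -1.42 and -0.10.

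The slow-fibre and cardiac pump Atp2a2 (SERCA2) varied widely in longissimus. Its gluteus values were -0.26, 0.25, 0.069, -0.43 and 0.082 in horses 1 to 5. In longissimus they were 0.18, -0.20, 0.55, 1.86 and -0.11. The value of horse 4 was the highest in longissimus and the lowest in gluteus, and the muscles overlapped. In longissimus of horse 4 only 21 of 7633 features were higher. The means were -0.058 ± 0.25 (SE, n = 5) in gluteus and 0.46 ± 0.25 (SE, n = 5) in longissimus, with limma adjusted p of 1 and 0.827. With each muscle fitted alone the SE was 0.11 in gluteus and 0.30 in longissimus. Without the longissimus sample of horse 4 the longissimus mean was 0.10 ± 0.14 (SE, n = 4).

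Atp2a3 encodes SERCA3, a pump known mainly from blood cells, platelets and endothelium. It had values on dense arrays alone, at 0.058, 0.068 and 0.022 in gluteus of horses 1, 2 and 3. In longissimus it stood at -0.32 and -0.098 in horses 1 and 2. All values were above 0 in gluteus and below 0 in longissimus, and no horse had a paired value on sparse arrays. The same pattern of signs was found in 2.93% of the 20394 features with all 5 values on dense arrays. The arrays of a pair had opposite signs in 4 of its 5 pairs. Gluteus horses 2 and 3 and longissimus horses 1 and 2 are pairs whose arrays ran against each other over all probes. Their Cy3 and Cy5 arrays read 0.23 and -0.097, 0.24 and -0.19, -0.60 and -0.031, and -0.45 and 0.25, in that order. With the Cy3 array of these pairs turned, these gluteus samples would lie below 0 and these longissimus samples above 0. On dense arrays alone limma gave the difference between muscles as 0.26 ± 0.15 (SE, adjusted p 0.99999). Of 13 genes listed as leukocyte and platelet markers, 6 features were tested, with medians of -0.051 in gluteus and -0.0081 in longissimus. Their part in the Atp2a3 values was not tested.

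Calsequestrin 1, the main luminal calcium buffer of fast fibres, had the most negative value of any member. In gluteus Casq1 read -0.87, 0.16, 0.29, -0.49 and 0.10 in horses 1 to 5. In longissimus it read -0.53, 0.27, 0.060, -4.88 and 0.40. With the deposited signs, horse 1 was low in both muscles and the horses other than 1 and 4 lay above 0. Horse 4 was low in gluteus and by far the lowest in longissimus. The arrays of a pair had opposite signs in 5 of 10 Casq1 pairs, 4 of 5 on dense arrays. Longissimus horse 1 read -1.19 in Cy3 and 0.13 in Cy5, and gluteus horse 2 read 0.86 and -0.54. With the Cy3 arrays of the discordant pairs turned, Casq1 lay below 0 in 3 of 5 gluteus and 1 of 5 longissimus samples. The longissimus value of horse 4 is a 29.5-fold difference, its 2 arrays gave -4.96 and -4.80, and 10 of 7633 features of that sample were lower. The means were -0.16 ± 0.63 (SE, n = 5) and -0.94 ± 0.63 (SE, n = 5), with limma adjusted p of 1 and 0.827. With each muscle fitted alone the SE was 0.18 in gluteus and 0.78 in longissimus. The longissimus interval ran from -2.32 to 0.44, and without the longissimus sample of horse 4 the mean was 0.047 ± 0.20 (SE, n = 4). The spread of Casq1 over horses in longissimus (SD 2.23) exceeded that of 99.8% of features, whose median SD was 0.29.

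Casq1 followed the fast-fibre markers from sample to sample. Of 11 genes listed as fast-fibre markers 4 were tested, the troponins Tnnc2 and Tnnt3, the fast alpha-actinin Actn3 and the Z-disc protein Myoz1. Their median in gluteus was -0.93, 0.093, 0.23, -0.42 and 0.093 in horses 1 to 5. In longissimus it was -0.67, 0.25, -0.18, -2.37 and 0.036. Casq1 had the sign of this median in 9 of 10 samples, longissimus of horse 3 being the exception. The correlation of Casq1 with it was 0.96 over 10 samples of 5 horses, and again 0.96 without the longissimus sample of horse 4, as a description of samples that share horses, pools and arrays. Of 3743 genes with all 10 values, 14 had a higher r with the same median, and 1 did without that sample. The median r of all these genes was -0.013, and 0.098 without that sample. Of the 4 markers, Tnnc2, Tnnt3 and Actn3 had r of 0.88 to 0.98 with Casq1 over the 10 samples and Myoz1 had -0.16, while without that sample Myoz1 had 0.83. The 8 tested of 10 slow-fibre markers gave r = 0.74 with Casq1 in both cases. In whole muscle RNA, a smaller share of a fibre type and less RNA per fibre cannot be told apart.

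In longissimus of horse 4 the fibre markers did not move as a block. Tnnc2 stood at -5.44, Tnnt3 at -2.95 and Actn3 at -1.79, while Myoz1 was at 0.19. Of the slow-fibre markers 6 had a value. Tnnc1 stood at -4.01, Myl2 at -3.86, Myl3 at -0.74 and Tnni1 at -0.52. The slow myosin heavy chain Myh7 was at 0.29 and Tpm3 at 0.72. Low values thus occurred in genes of both fibre types in this sample. In the other longissimus samples the lowest value was -1.73 for Tnnc2, -0.32 for Tnnt3, -1.15 for Tnnc1 and -0.55 for Myl2. For Myl3 it was -0.39 and for Tnni1 -0.18. The part of these markers, or of this sample's arrays, in the Casq1 and Atp2a2 values was not tested.

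**Figure D3:**
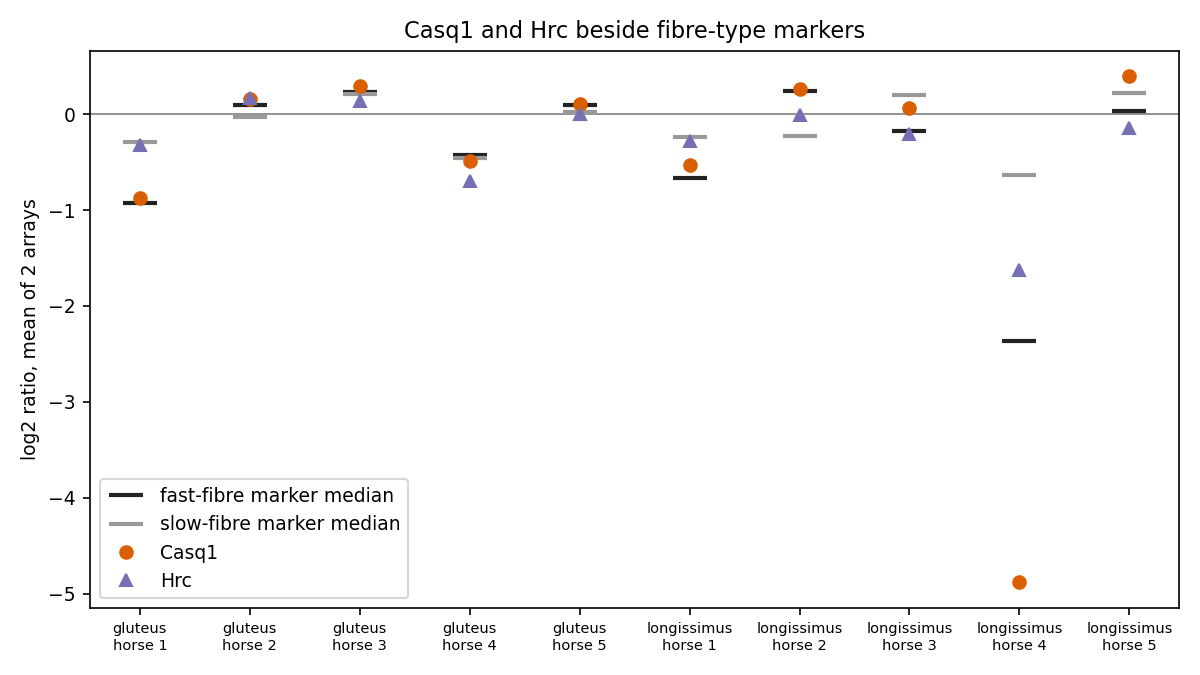
Log2 ratios of Casq1 and Hrc in each of the 10 horse and muscle samples, with the medians of the tested fast-fibre (4 genes) and slow-fibre (8 genes) markers as bars. Casq1 lies near the fast-fibre bar in gluteus horses 1 to 5 and far below it in longissimus horse 4, at -4.88 against -2.37.

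The histidine-rich calcium-binding protein Hrc, a luminal buffer that also contacts the release machinery, was below 0 in every longissimus sample. Its longissimus values were -0.28, -0.0086, -0.21, -1.63 and -0.14 in horses 1 to 5. In gluteus they were -0.32, 0.16, 0.14, -0.70 and -0.0026. Horse 4 was the lowest in both muscles, and horse 2 in longissimus was at 0 within the spread of its arrays, which gave 0.15 and -0.16. A sign below 0 in every horse was found for 3% of all features in longissimus. The mean was -0.45 ± 0.21 (SE, n = 5) in longissimus and -0.14 ± 0.21 (SE, n = 5) in gluteus, with limma adjusted p of 0.827 and 1. With each muscle fitted alone the SE was 0.24 in longissimus and 0.14 in gluteus. Without the longissimus sample of horse 4 the longissimus mean fell in size to -0.16 ± 0.13 (SE, n = 4), still below 0 in each horse. Hrc and Casq1 had r = 0.94 over the 10 samples and 0.70 without that sample, and Hrc with the fast-fibre median had 0.93 and 0.70. With the slow-fibre median Hrc had 0.78 and 0.65. Of 3743 genes, 80 had a higher r than Hrc with the fast-fibre median, and 324 did without that sample. The other members with 10 values had r with the fast-fibre median of -0.49 (Atp2a1), -0.73 (Atp2a2) and -0.38 (Pln). Without that sample these were 0.075, 0.23 and 0.27.

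Calsequestrin 2, the buffer of cardiac and slow fibres, did not share the low values of Casq1. In longissimus Casq2 read 0.64, -0.26, 0.044, 0.58 and 0.22 in horses 1 to 5. In gluteus it read 0.13, -0.12, -0.093 and -0.20 in horses 1, 2, 3 and 5. Horse 4 had a single gluteus array, at 2.14, and so no paired value. The means were -0.070 ± 0.14 (SE, n = 4) in gluteus and 0.25 ± 0.13 (SE, n = 5) in longissimus (limma adjusted p 1 and 0.827). When single arrays were let in, that one value took the gluteus mean to 0.37, with the opposite sign.

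Calreticulin, the calcium-binding chaperone of the endoplasmic reticulum, was measured in few samples. Calr read -0.18, 0.22, -0.058 and 0.095 in gluteus of horses 1, 2, 3 and 5. In longissimus it read -0.34 and -0.072 in horses 1 and 2. The gluteus values lay on both sides of 0, and the arrays of a pair had opposite signs in 4 of 6 pairs. In longissimus of horse 1 those arrays read -1.11 and 0.43. Of 13 related endoplasmic reticulum calcium-binding proteins and chaperones, 9 features were tested, and 0 passed in either muscle. Below 0 were 8 in gluteus (median -0.063) and 4 in longissimus (median 0.014), beside 53.9% and 51% of all features. These features share horses, pools and arrays. Hsp90b1, the reticulum's HSP90, had a longissimus ratio of -0.30 ± 0.21 (SE, n = 5), and the lectin chaperone Canx stood at 0.34 ± 0.29 (SE, n = 4).

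The pump inhibitors had values on both sides of 0 in both muscles. Phospholamban restrains SERCA2 in heart and slow muscle. Pln read -0.065, 0.054, 0.14, -0.0026 and 0.20 in gluteus of horses 1 to 5. In longissimus it read -0.090, 0.048, -0.0014, 0.34 and -0.41. The gluteus values had the smallest spread of the 6 tested members (SD 0.11, larger than in 18.1% of features), and horses 4 and 5 marked the ends in longissimus. Its means were 0.066 ± 0.096 (SE, n = 5) and -0.021 ± 0.096 (SE, n = 5), with limma adjusted p of 1 and 0.975 and intervals from -0.15 to 0.28 and from -0.23 to 0.19. Both intervals lay within a 2-fold change in either direction. They hold no spread among control horses, and the arrays of a pair had opposite signs in 6 of 10 Pln pairs. A larger change between RER and sound horses is therefore not excluded.

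Sarcolipin, which binds the pump of skeletal muscle and makes it turn over without full transport, had paired values in 3 horses of each muscle. Sln read 0.16, 0.11 and -0.11 in gluteus of horses 1, 2 and 3. In longissimus it read 0.70, -0.38 and 0.023 in horses 1, 2 and 5. A single Cy3 array added 0.075 in gluteus of horse 5 and 0.14 in longissimus of horse 3, which had no paired value. The longissimus values of the dense-array horses 1 and 2 had opposite signs and were the farthest apart. With 3 horses in each muscle let into the test, the means were 0.052 ± 0.20 (SE, n = 3) and 0.11 ± 0.20 (SE, n = 3), and limma adjusted p was 1 and 0.928.

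**Figure D4:**
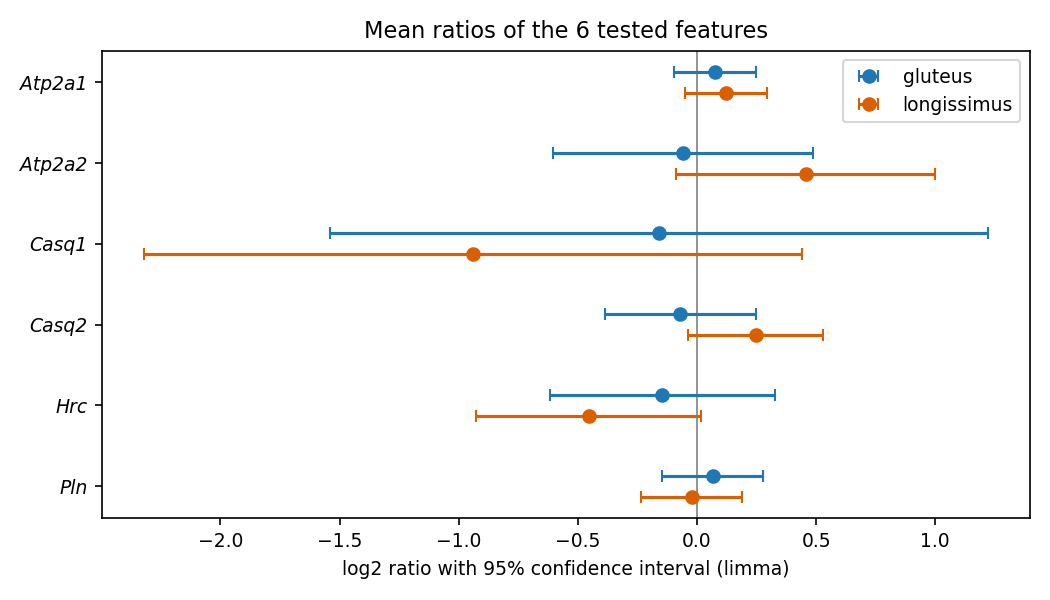
Mean log2 ratio of the 6 tested features in gluteus and longissimus with 95% confidence intervals from limma (n = 5 horses, 4 for Casq2 in gluteus). Every interval includes 0, and those of Casq1 are the widest, from -2.32 to 0.44 in longissimus.

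None of the 6 tested members passed the test of the difference between muscles. The gluteus minus longissimus difference was 0.78 ± 0.88 for Casq1, -0.51 ± 0.35 for Atp2a2, -0.32 ± 0.19 for Casq2 and 0.31 ± 0.30 for Hrc (SE, limma). For Pln it was 0.087 ± 0.14 and for Atp2a1 -0.046 ± 0.11. Adjusted p was 0.9998 for each of the 6, and 0% of all features passed (1.82% at an unadjusted p under 0.05). Without the longissimus sample of horse 4 the Casq1 difference turned to -0.21 and that of Hrc became 0.017. These fits hold no term for the horse, though both muscles come from the same horses. With horse as a fixed block the differences were 0.78 ± 0.71 for Casq1, -0.51 ± 0.38 for Atp2a2, -0.23 ± 0.15 for Casq2 and 0.31 ± 0.15 for Hrc. Limma adjusted p was 0.942 for each of these, and for Hrc it was 0.0851 before adjustment. Averaged over both muscles, Casq1 stood at -0.55 ± 0.43, Hrc at -0.30 ± 0.18 and Atp2a2 at 0.20 ± 0.12 (SE, n = 5, limma adjusted p 0.999 each), with 0% of 10063 features past the threshold and 1.9% at an unadjusted p under 0.05. With the Cy3 arrays of the 4 discordant pairs turned, the Atp2a2 mean of both muscles was 0.00035, and it was 0.46 on Cy3 arrays alone and -0.062 on Cy5 arrays alone. The Atp2a1 difference between muscles, turned in the same way, was -0.25 ± 0.13 (SE, limma adjusted p 0.938) and below 0 in 5 of 5 horses, against 0.20 on Cy3 arrays alone and -0.29 on Cy5 arrays alone.

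The readings of the pumps Atp2a2 and Atp2a1 differed between the Cy3 and Cy5 arrays of a pair in longissimus. There Atp2a2 averaged 0.87 on arrays with RER RNA in Cy3 and 0.041 on those in Cy5, lower in Cy5 in 5 of 5 horses. Atp2a1 averaged -0.11 and 0.36, higher in Cy5 in 5 of 5 horses. Horses 1 and 2 are the longissimus pairs whose arrays ran against each other over all probes. On their Cy3 and Cy5 arrays Atp2a2 read 0.93 and -0.58 in horse 1, and 0.52 and -0.92 in horse 2. In these pairs a dye effect and a reversed sign of an array cannot be told apart. The Cy5 minus Cy3 difference was -0.83 ± 0.21 for Atp2a2 and 0.47 ± 0.15 for Atp2a1 (SE, n = 5, limma adjusted p 0.0223 and 0.0437), and 21.5% of all features passed this comparison. Leaving out horse 1, 2 or 4 ended the Atp2a2 call (adjusted p 0.0505 to 0.0993), and leaving out horse 1, 2, 4 or 5 ended that of Atp2a1 (0.0768 to 0.150), as did leaving the arrays uncentred (0.0501). In gluteus 0 of the 6 tested members passed, against 2.87% of features. The average of a pair cancels a dye effect that is equal on both arrays. Over all member probes the arrays of a pair had opposite signs in 40 of 81 pairs, 31 of 45 on dense arrays and 9 of 36 on sparse arrays. Over all features the shares were 55.0% on dense and 37.4% on sparse arrays.

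**Figure D5:**
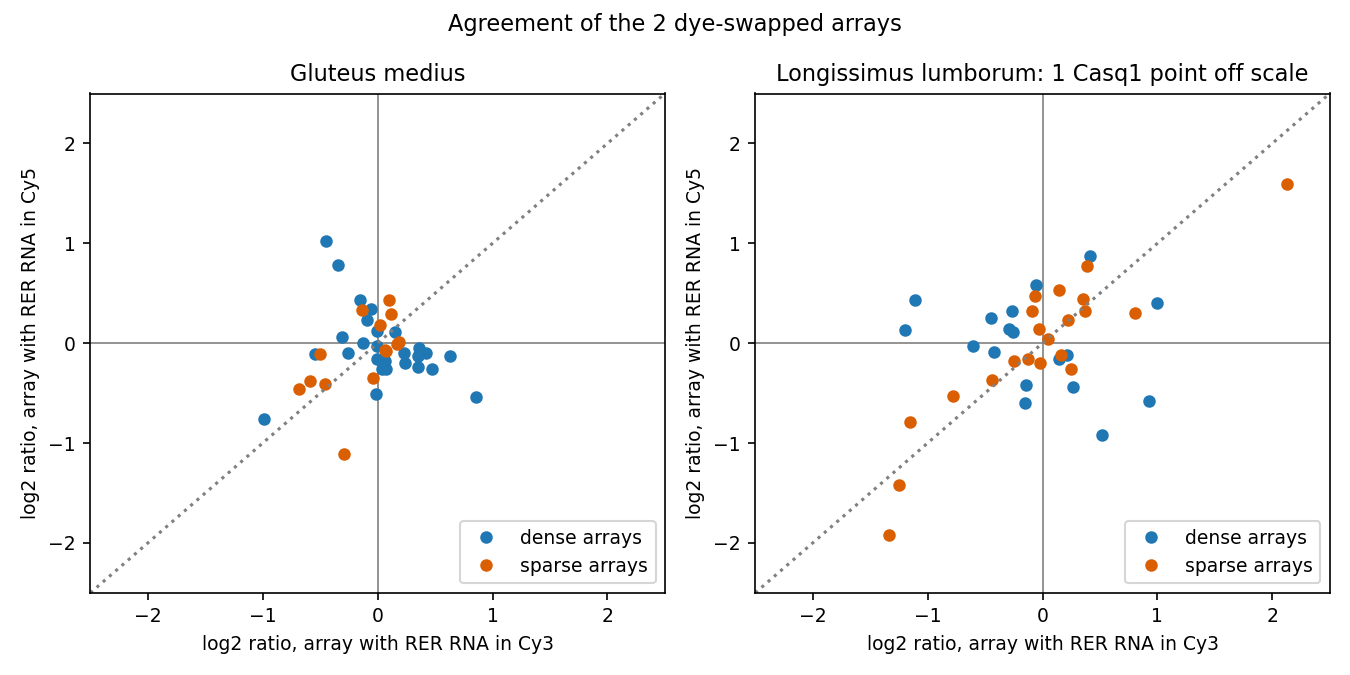
Log2 ratios of the member probes on the 2 arrays of each horse and muscle, with RER RNA in Cy3 (horizontal) and in Cy5 (vertical). The dotted line marks equal values. Points in the upper left and lower right have opposite signs on the arrays, 31 of 45 pairs on dense and 9 of 36 on sparse arrays. The Casq1 pair of longissimus horse 4, at -4.96 and -4.80, lies outside the axes.

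Other genes of sarcoplasmic reticulum calcium release and handling were listed as 28 genes, of which 26 features were on the array and 15 were tested. In gluteus 12 of the 15 lay below 0 (median -0.013) and in longissimus 8 of 15 (median -0.0025), and 0 passed in either. Of all features, 53.9% lay below 0 in gluteus and 51% in longissimus. Features of a list share horses, pools and arrays. Sypl2, a protein of the triad junction also known as mitsugumin-29, stood at -0.36 ± 0.22 in gluteus, and the reticulum lumen protein Calu at -0.14 ± 0.12 (SE, n = 5). In longissimus the smallest p belonged to Cacna2d1, a subunit of the voltage-gated calcium channel, at 0.16 ± 0.070, and to the triad protein Jsrp1 at -0.30 ± 0.16 (SE, n = 5, limma adjusted p 0.827 for each). Among the fibre markers all 4 fast ones had means below 0 in both muscles, as had 5 of 8 slow ones in each, and 0 passed. The slow light chain Myl3 had the smallest longissimus p of the slow list, at -0.36 ± 0.11 and below 0 in 5 of 5 horses (SE, limma adjusted p 0.827, 0.00714 before adjustment by that model), and in gluteus the slow troponin Tnni1 stood at 0.22 ± 0.13 and Myoz1 at -0.37 ± 0.17. In the leukocyte and platelet list, 4 of 6 tested features lay below 0 in gluteus and 3 of 6 in longissimus. The platelet integrin genes Itga2b and Itgb3 stood at 0.15 ± 0.087 and -0.16 ± 0.099 in gluteus (SE, n = 5 and 4). In longissimus Itga2b stood at 0.13 ± 0.087 and the macrophage marker Cd68 at -0.45 ± 0.24 (SE, n = 5). The lists of endothelial and smooth muscle cells and of adipocytes had 5 and 2 tested features, with gluteus medians of -0.12 and 0.048 and longissimus medians of 0.035 and 0.078. Of the 5 endothelial and smooth muscle features, 3 lay below 0 in gluteus and 1 in longissimus. In gluteus the endothelial cadherin Cdh5 stood at 0.15 ± 0.079 and Des at -0.16 ± 0.11, below 0 in 5 of 5 horses (SE, n = 5). In longissimus the endothelial receptor Kdr stood at 0.16 ± 0.13 and Des at 0.12 ± 0.11 (SE, n = 5). Leptin (Lep) stood at 0.023 in gluteus and 0.058 in longissimus.

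The genes whose ratios ran most like a member's over the 10 samples were picked by Pearson r among 3742 others. For Casq1 they were Arl2, Ptov1 and Pard3 (r = 0.99 for each, and 0.94, 0.85 and 0.86 without the longissimus sample of horse 4). For Hrc they were Rpl3l, a ribosomal protein of striated muscle, Duoxa1 and Nrip3 (r = 0.98 each, and 0.94, 0.94 and 0.92). Zfp36, Uqcrc2 and Malt1 were nearest to Atp2a2 (r = 0.96, 0.96 and 0.95), but their r without that sample was 0.78, 0.79 and 0.69. Ninj2, Ifngr2 and Slc39a9 were nearest to Atp2a1 (r = 0.92, 0.90 and 0.90), and Cenpp, Fgf20 and Pelo to Pln (r = 0.96, 0.95 and 0.92). These values are descriptions over samples that share horses, pools and arrays.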

How the data were processed

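RNA of 5 RER horses in 2 muscles was measured on 20 two-colour arrays. Per the labels, TRIZOL was used for extraction, dyes were coupled to amino-allyl RNA from in vitro transcription, and the submitters averaged each dye swap. What they deposited is log2 ratios that the authors had normalized; the method, scanner, background correction and blank filter are not given in the sources used here. The scale was judged log2 from the numbers (floor -6.6439, the highest 9.4043). No member probe had a floor value or an exact zero.

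Arrays were centred on their medians, the arrays of a pair averaged where both had a value, and probes averaged by symbol as spelled. The test was of a ratio different from 0, by limma (version 3.58.1, R 4.3.3), both muscles in 1 fit of 10 horse and muscle values, Benjamini-Hochberg adjusted over all features at 0.05. The fit was tested on simulated data. Both muscles come from the same 5 horses by the labels; over features, each horse had an r between its muscles, as deviations from the mean of all horses, of 0.58, 0.30, -0.098, 0.021 and -0.0024. The number of arrays limits the precision. Named are all members, genes from the 2 with the smallest p of each other list and muscle, and the 3 genes nearest in pattern to each member with 10 values. Outside this rule, Myl2, Myh7, Tpm3 and Actn3 were named after their values were seen. Members, gene lists and tests were chosen with earlier results of these data known. Alternatives covered orientation, dye, centring, scaling, filters, probe averaging, fits, array groups and single horses. Probe and gene sequences were not used here.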

Additional observations from a re-analysis of the deposited data

Results flagged for a closer look

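In longissimus, Casq1 of horse 4 stood at -4.88, and the nearest other horse was at -0.53. Hrc of the same sample stood at -1.63, with the nearest horse at -0.28. Both gaps, 0.82 and 0.83 of the whole range of the 5 horses, exceed Dixon's critical value of 0.71, which chance passes in about 5% of groups, and 13 groups of member values were examined. Of the 7795 features with 5 longissimus values, 11.6% had an outlying horse by this measure, and 4.62% had horse 4 outlying as the lowest. The 2 arrays of this sample correlated at 0.85 over all probes, the highest of the 10 pairs.

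Atp2a3 was above 0 in all 3 measured gluteus samples and below 0 in both measured longissimus samples, a difference between the means of 0.26. The same signs were found in 2.93% of features with all 5 values on dense arrays. With the Cy3 arrays of the discordant pairs turned, gluteus horses 2 and 3 would lie below 0 and longissimus horses 1 and 2 above 0. The difference between muscles was not tested over all horses. On dense arrays alone limma gave p = 0.139 and an adjusted p of 0.99999.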

How the results depend on the processing

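In gluteus, longissimus, their difference and their mean, no member passed in any of 486 recomputed values, and the lowest adjusted p was 0.129. Of these values, 464 moved by less than the SD over horses and 22 by more, 12 of them by turning all signs. An opposite sign in at least 1 alternative other than turned signs was found for 17 of 24 member results, all of them uncalled. Counts of features called left 0 on arrays of a single dye: Cy3 arrays called 2 in gluteus (both unnamed probes) and 2 in longissimus (Aqp3 and an unnamed probe), and Cy5 arrays 4 in gluteus (Aqp3, Bmp8a, Psmb4 and an unnamed probe), 92 in longissimus and 7 in the mean of both muscles. Sparse arrays alone called 1 feature in each muscle, an unnamed probe both times. The names Aqp3, Bmp8a and Psmb4 were chosen after seeing values. On Cy3 arrays the member median of the difference between muscles was 0.22, against 0.021. The causes were not tested. Leaving out each horse left 0 features called in gluteus, longissimus, their difference and the mean of both, and the dye comparison called 5 to 164 features in gluteus (292 with all horses) and 703 to 1763 in longissimus (2190). With horse as a replicate block, 0 features passed in gluteus, longissimus and their difference, and the block changed no call; at an unadjusted p under 0.05 the difference had 349 features, and 422 with a fixed block, against 185. Leaving out the longissimus sample of horse 4 was chosen after seeing the data. Signal over background is unknown in these files and limits every ratio.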
